A study of Homo sapiens with 4 samples.

Results

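The RNAs of the human mitochondrial genome are described here in H9, a cell line derived from a human embryo and kept in a primed pluripotent state, from full-length cDNA read on a nanopore sequencer. The members are every gene that the deposited expression table places on the chromosome named MT, 30 of 16174 rows, namely 13 mRNAs, 2 rRNAs and 15 tRNAs. In all cells doxycycline switched on dCas9-BFP-KRAB from an integrated piggyBac transgene. This fusion joins a Cas9 that no longer cuts DNA to a domain that represses transcription. They differed in the guide RNAs delivered with it, which were either a pool against the long non-coding RNA gene SNHG26 or non-targeting control guides. Both arms received 1 µg/mL doxycycline and were harvested after 2 or 3 days, with 1 library for each combination. An arm therefore has 2 libraries, 1 from each day. The study asked what changes in these cells when SNHG26 is repressed. Doxycycline belongs to the tetracyclines, which are known to inhibit translation on mitochondrial ribosomes, and it was present in all 4 libraries. The labels do not say whether the lines were clonal, and the day cannot be told apart from the length of exposure to doxycycline.

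The mitochondrial genome is a small circle that is transcribed from both strands into long polycistronic RNAs. Transfer RNAs lie between most of the other genes, and their excision releases the rRNAs and mRNAs. Most of these then receive poly(A) tails from a polymerase of their own. The mRNAs encode core subunits of complexes I, III and IV of the respiratory chain and of ATP synthase (complex V), and the rRNAs build the mitochondrial ribosome that translates them. The nucleus encodes all other subunits of these complexes and every factor that copies, transcribes, processes and translates the mitochondrial genome. One gene, MT-ND6, and 8 of the 22 tRNA genes lie on the minus strand of the reference, and the rest lie on the plus strand.

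The tails matter for what was counted, since the cDNA was primed with oligo-dT. They also complete the coding sequence of several mRNAs. In the GENCODE release 29 sequence of GRCh38, 6 of the 13 mRNAs end 1 or 2 bases past their last full codon, so that the tail supplies the rest of a stop codon. Of these, 5 end in T and 1 (MT-ND1) ends in TA. The other 7 end in a full codon. The last 30 bases of 6 mRNAs are shown for this reason, 5′ to 3′, with the encoded stop codon, or the part of it that the gene holds, in capitals. MT-CO1 and MT-ND6 end in AGA and AGG, which serve as their last codons.
MT-CO2 (MT:8240-8269, plus strand): tttgaaatagggcccgtatttaccctaTAG
MT-CO1 (MT:7416-7445, plus strand): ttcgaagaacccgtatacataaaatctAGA
MT-CO3 (MT:9961-9990, plus strand): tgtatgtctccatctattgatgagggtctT
MT-ND4 (MT:12108-12137, plus strand): accccgacatcattaccgggttttcctctT
MT-ND1 (MT:4233-4262, plus strand): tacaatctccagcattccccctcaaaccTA
MT-ND6 (MT:14149-14178, minus strand): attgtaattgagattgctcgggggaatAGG

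Neighbouring mRNAs also overlap, which bears on how reads were assigned. MT-ATP8 and MT-ATP6 share 46 bases and MT-ND4L and MT-ND4 share 7, and in both cases the pair is known to stay on 1 RNA. MT-ATP6 and MT-CO3 share 1 base. The end of the first gene of each pair is shown with the bases that lie in both genes in capitals. Each shared stretch opens with the ATG of the second gene.
MT-ATP8 into MT-ATP6 (MT:8515-8572, plus strand): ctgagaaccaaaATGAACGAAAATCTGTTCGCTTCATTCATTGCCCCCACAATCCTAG
MT-ND4L into MT-ND4 (MT:10748-10766, plus strand): aaacctactccaATGCTAA
How a read that covers both genes of a pair was assigned is not given in the sources used here, and neither is whether counting used strand. Values of MT-ATP8 and MT-ND4L are therefore uncertain against those of their partners.

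The table gives TPM, a read number divided by gene length and scaled to a common sum in each library. The length listed for each gene runs from gene start to gene end, introns included. Mitochondrial genes have no introns, so for them TPM is in proportion to reads per base of gene. Ratios of TPM between genes of unlike length therefore differ from ratios of reads. For all 30 rows the values resolved into a whole number of reads over the gene length, within 0.0001 read, so the reads behind each value are known. The rows held 37635 and 32265 reads in the SNHG26-guide libraries of day 2 and day 3, and 37715 and 45654 reads in the control libraries. Of 13840 genes with a value, 2853 resolved into whole reads over the listed length, so the divisor used for genes with introns is not known. Whole libraries held at most 947338 to 1220265 reads, counted on full gene spans. The targeted gene, SNHG26, was listed at 0 and 0.933 TPM with the SNHG26 guides and at 2.98 and 4.03 TPM with the control guides. Of 14 markers of pluripotent cells 13 were found by the names searched, each with a value in all 4 libraries and with a summed level of 1785 to 1990 TPM. The other, TDGF1, is listed as CRIPTO, averaged 327 TPM and is not in this sum. Of 16 markers of mesendoderm, neuroectoderm, amnion and trophectoderm, 5 were found by the names searched and 1 had a value in every library. That 1 was a marker of neuroectoderm, at 24.5 and 21.2 TPM with the SNHG26 guides and at 23.2 and 17.1 TPM with the control guides. Intervals on reads given below are exact 95% intervals. They cover counting error only, since amplified reads without molecular identifiers are not independent molecules.

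Mitochondrial RNA took a smaller part of the SNHG26-guide libraries than of the control libraries. Its share of the listed TPM was 23.2% on day 2 and 18.5% on day 3 with the SNHG26 guides, against 25.7% and 25.9% with the control guides. Both SNHG26-guide libraries lay below both control libraries, and the SNHG26-guide library of day 3 was the lowest. The means were 20.8 ± 3.28% and 25.8 ± 0.186% (SD over the days, n = 2). The rRNAs took 15.3% and 11.1% in the SNHG26-guide libraries and 16.5% and 16.4% in the controls. The mRNAs took 7.69% and 7.33% against 8.94% and 9.31%, and the tRNA rows from 0.113% to 0.236%. Between the days of the SNHG26 arm the rRNA share differed by more than the mRNA share, and the rRNA level was 1.99 times the mRNA level on day 2 and 1.51 times on day 3. In the controls that ratio was 1.84 and 1.77. These are ratios of TPM, and in the control library of day 2 the rRNAs had 28550 reads and the mRNAs 9146. TPM favours short genes. Full gene spans give the most reads a library could hold, so the share by reads counted on them is a lower bound. It was 3.60% and 2.64% against 3.98% and 4.02%, in the same order. In a whole library, fewer mitochondria and less RNA per mitochondrion cannot be told apart.

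**Figure D1:**
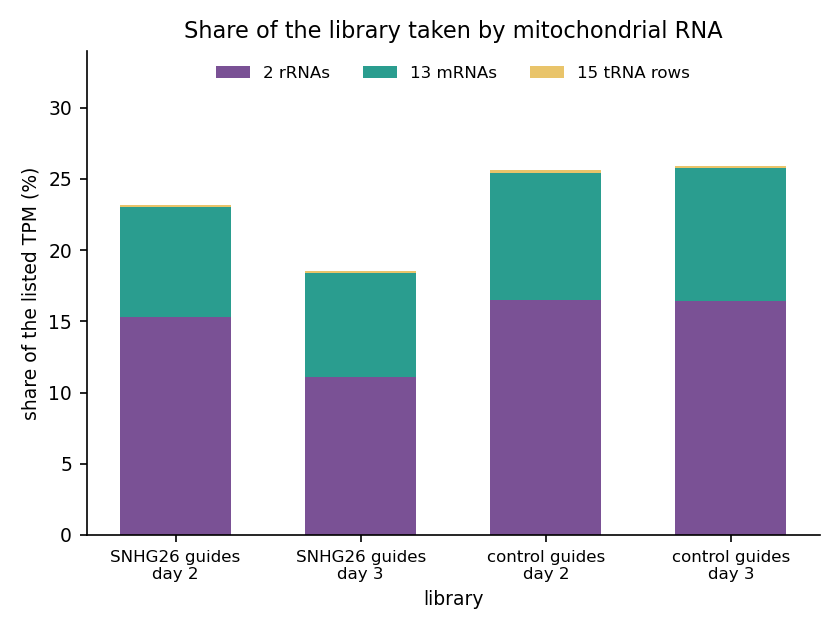
Share of the listed TPM (y axis, percent) taken by the 2 rRNAs, the 13 mRNAs and the 15 tRNA rows in each of the 4 libraries (x axis, 1 bar each). The total was 18.5% in the SNHG26-guide library of day 3 and 23.2% to 25.9% in the other libraries.

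By mean TPM over the libraries the rRNAs stood highest. MT-RNR2, the 16S rRNA of the large ribosomal subunit (MT:1671-3229), was the highest gene of the table by mean TPM. It stood at 117721 and 86030 TPM with the SNHG26 guides, from 25174 and 20535 reads, and at 129935 and 132610 TPM with the control guides, from 25218 and 30783 reads. MT-RNR1, the 12S rRNA of the small subunit (MT:648-1601), was second in the table, at 28710 and 19663 TPM against 28056 and 24597 TPM. Its reads numbered 3757 and 2872 against 3332 and 3494. For MT-RNR2 the arms did not overlap, and for MT-RNR1 the SNHG26-guide library of day 2 was the highest of the 4. The 16S to 12S ratio was 4.10 (95% interval 3.96 to 4.24) and 4.38 (4.21 to 4.55) in the SNHG26-guide libraries. It was 4.63 (4.47 to 4.80) and 5.39 (5.21 to 5.58) in the controls, where it was higher on day 3 than on day 2 beyond counting error.

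Both rRNAs are read here from a method that primes on runs of A. Their longest runs of A are shown in capitals with 20 bases on each side, as the stretches of each gene most like a tail. In MT-RNR2 this run is 7 bases long and begins at base 787 of the gene, and in MT-RNR1 it is 6 bases long and begins at base 346.
MT-RNR2 (MT:2437-2483, plus strand): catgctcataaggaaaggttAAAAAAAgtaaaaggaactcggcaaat
MT-RNR1 (MT:973-1018, plus strand): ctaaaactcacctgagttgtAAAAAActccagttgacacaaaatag
MT-RNR2 held 4 runs of at least 6 A, more than any other member, and MT-RNR1 held 1. Among the mRNAs, MT-ND5 had the longest run, 8 bases, MT-ND2, MT-CO1 and MT-ND4 had runs of 7, and MT-CO2, the highest mRNA, had none above 5. The table holds no read ends, so where priming began was not tested.

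Among the mRNAs, MT-CO2 was the highest by a wide margin and MT-ND6 the lowest. MT-CO2 encodes the complex IV subunit that receives electrons from cytochrome c. It stood at 20954 and 24779 TPM with the SNHG26 guides and at 24345 and 26786 TPM with the control guides. MT-ND6, a membrane subunit of complex I and the only mRNA on the minus strand, stood at 458.2 and 472.7 TPM against 535.5 and 537.3 TPM, from 33 to 42 reads a library. Every library of MT-CO2 lay above every library of MT-CO3, the next mRNA, and every library of MT-ND5 above every library of MT-ND6. The MT-CO2 to MT-ND6 ratio ran from 45.5 to 52.4, with counting intervals that all overlapped (the widest 38.1 to 74.2). By mean TPM over the 4 libraries the order was MT-CO2 (24216), MT-CO3 (9489), MT-ND4 (8393), MT-ATP6 (6367), MT-CYB (5756), MT-ND1 (5629), MT-ND2 (4350), MT-ND4L (3684), MT-ND3 (3403), MT-CO1 (3383), MT-ATP8 (2687), MT-ND5 (1673) and MT-ND6 (500.9).

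Only part of that order was firm. The ranges of neighbours did not overlap at 3 of 12 steps, between MT-CO2 and MT-CO3, MT-ND1 and MT-ND2, and MT-ND5 and MT-ND6. The ranges of MT-CO3, MT-ND4, MT-ATP6 and MT-CYB overlapped from one to the next, but these genes kept this order in each of the 4 libraries. MT-ND4L stood above MT-ND3 in 2 of the 4 libraries and MT-ND3 above MT-CO1 in only 1. MT-CYB and MT-ND1, MT-ND2 and MT-ND4L, MT-CO1 and MT-ATP8, and MT-ATP8 and MT-ND5 each held this order in 3 of the 4. Ranked by reads instead of per base, 3 of the 13 mRNAs kept their place, since the long MT-CO1 and MT-ND5 then move up.

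Position along the genome did not order the levels. Starting from the rRNAs, the plus-strand mRNAs of the control library of day 2 ran 6218 (MT-ND1), 4371 (MT-ND2), 3938 (MT-CO1), 24345 (MT-CO2), 2910 (MT-ATP8), 6889 (MT-ATP6), 10266 (MT-CO3), 3529 (MT-ND3), 4787 (MT-ND4L), 9362 (MT-ND4), 2053 (MT-ND5) and 6449 TPM (MT-CYB). Some adjacent mRNAs of the same polycistronic RNA stood close together, as MT-ND2 and MT-CO1, and others lay several-fold apart. Per base, MT-CO2 stood 6.18 times (95% interval 5.68 to 6.73) above MT-CO1, the mRNA just before it, from 2073 and 756 reads. MT-ND5 and MT-ND6, whose 3′ ends meet on opposite strands, had the lowest mean levels of the mRNAs, although MT-ATP8 lay below MT-ND5 in the SNHG26-guide library of day 2. Minus-strand genes held from 0.101% to 0.133% of the mitochondrial reads, and MT-ND6 took from 0.604% to 0.676% of the mRNA TPM. The libraries were made from poly(A) RNA primed with oligo-dT, and how far levels by gene and strand reflect capture was not tested. By complex, the 3 mRNAs of complex IV took 45.7% and 49.5% of the mRNA TPM with the SNHG26 guides and 45.0% and 46.8% with the control guides. The 7 mRNAs of complex I took 36.9% and 31.6% against 36.0% and 34.2%. MT-CYB, the only mitochondrial mRNA for complex III, took from 6.99% to 7.53%, and the pair for ATP synthase from 10.4% to 12.1%.

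**Figure D2:**
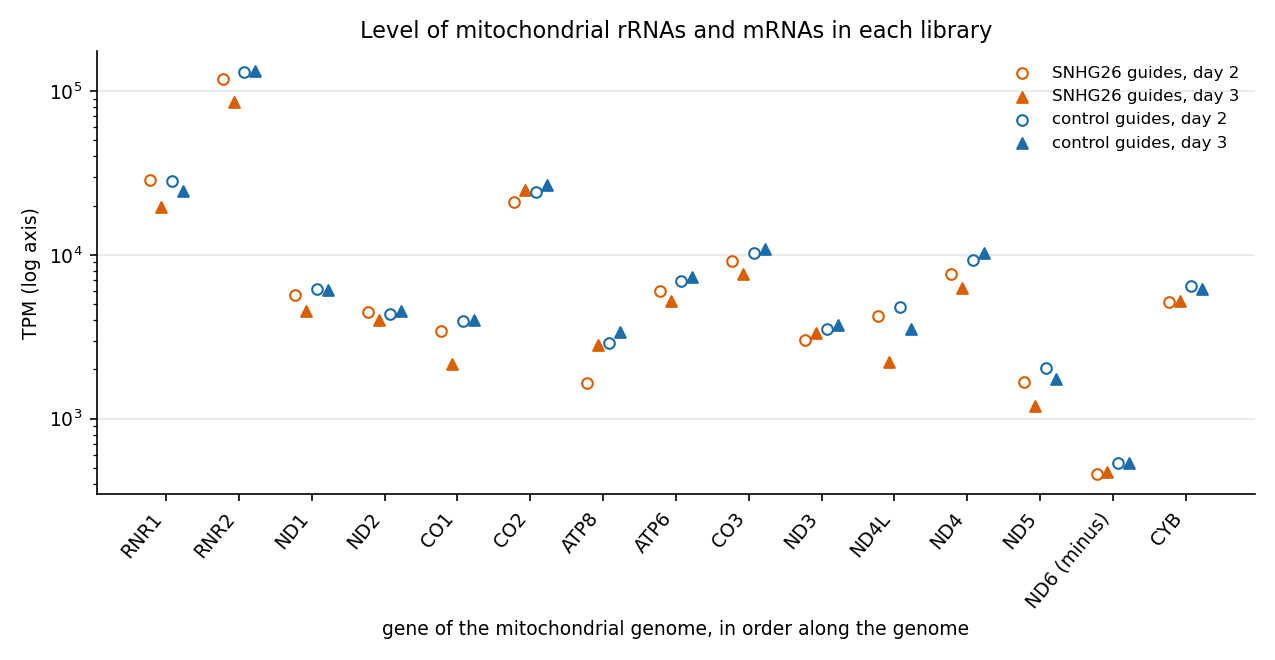
Level in TPM (y axis, log scale) of the 2 rRNAs and 13 mRNAs in order along the genome (x axis), with 1 point per library (circles day 2, triangles day 3, orange SNHG26 guides, blue control guides). MT-RNR2 is the highest at 86030 to 132610 TPM, MT-CO2 is the highest mRNA, and the minus-strand MT-ND6 is the lowest at 458.2 to 537.3 TPM.

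Between the guide arms, the mitochondrial mRNAs were lower with the SNHG26 guides on both days in 12 of 13 cases, and no single one passed the test. Of the 13, MT-ND2 was the exception, with a slightly higher value on day 2. Over all genes tested, 0 of 8274 (0%) passed a limma adjusted p of 0.05, and 337 (4.07%) had an unadjusted p under 0.05, among them 4 of the 13 mRNAs and 1 tRNA row. Of the genes tested, 21.8% were lower on both days and 24.8% higher on both days, while no mitochondrial mRNA was higher on both. In 10 of the 13 mRNAs both SNHG26-guide libraries lay below both control libraries, which held for 13.2% of all genes tested. Among 351 genes that averaged 300 TPM or more, a threshold chosen after seeing the data, 15.1% were lower on both days and 7.98% did not overlap in this direction. These shares include the members, which were 14 of the 53 genes lower on both days and 12 of the 28 not overlapping. The median log2 change of the mRNAs was -0.33, with -0.22 on day 2 and -0.42 on day 3, beside 0.0414 over all genes tested. The exact permutation p of a single gene cannot go below 0.333 with 2 libraries against 2.

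The complex I mRNAs, which encode membrane subunits of NADH dehydrogenase, differed in size of change. MT-ND4, a proton-pumping subunit, stood at 7629 and 6304 TPM with the SNHG26 guides and at 9362 and 10279 TPM with the control guides. The arms did not overlap, and the log2 change was -0.50 (SE 0.12, limma adjusted p 0.858, unadjusted 0.0144). MT-ND5, its counterpart at the far end of the membrane arm, stood at 1682 and 1200 TPM against 2053 and 1757 TPM (log2 change -0.42, SE 0.21, and from -0.66 to -0.18 with 1 library left out). MT-ND1, which lies near the quinone site, stood at 5658 and 4543 TPM against 6218 and 6098 TPM (log2 change -0.28, SE 0.13, and from -0.44 to -0.12 with 1 library left out). In these 3 the arms did not overlap and the SNHG26-guide library of day 3 was the lowest. MT-ND2, another pumping subunit, stood at 4506 and 4005 TPM against 4371 and 4518 TPM, so its arms overlapped (log2 change -0.0650, SE 0.0960). MT-ND3, a small membrane subunit, stood at 3013 and 3322 TPM against 3529 and 3746 TPM, without overlap. MT-ND4L, the smallest, stood at 4222 and 2221 TPM against 4787 and 3505 TPM, so its arms overlapped and both of its day 3 values were below both day 2 values. MT-ND6, given above, did not overlap between the arms. Its day 2 ratio between the arms of 0.856 had a counting interval of 0.515 to 1.42, so at this depth a difference within a day was not detectable.

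MT-CYB, the cytochrome b of complex III, had the smallest unadjusted p of the mRNAs. It stood at 5150 and 5203 TPM with the SNHG26 guides and at 6449 and 6222 TPM with the control guides. The arms did not overlap and the libraries within each arm lay close together. The log2 change was -0.29 (SE 0.0711, limma adjusted p 0.852, unadjusted 0.0139), from ratios of 0.799 (95% interval 0.726 to 0.879) on day 2 and 0.836 (0.765 to 0.915) on day 3.

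The complex IV mRNAs differed in how far apart the arms stood. MT-CO1, which encodes the catalytic subunit of cytochrome c oxidase, stood at 3447 and 2152 TPM with the SNHG26 guides and at 3938 and 3994 TPM with the control guides. The day 3 library of the SNHG26 guides was far below the other libraries, with a ratio to its control of 0.539 (95% interval 0.482 to 0.601), against 0.875 (0.789 to 0.970) on day 2. The log2 change over both days was -0.54 (SE 0.25, limma adjusted p 0.935). MT-CO3, a core subunit without metal centres, stood at 9187 and 7656 TPM against 10266 and 10845 TPM, without overlap (log2 change -0.33, SE 0.11, unadjusted limma p 0.0406). MT-CO2, whose levels are given above, had overlapping arms, with ratios of 0.861 (0.809 to 0.916) on day 2 and 0.925 (0.876 to 0.977) on day 3. The MT-CO2 to MT-CO1 ratio was 6.08 (5.58 to 6.63) and 11.5 (10.5 to 12.7) in the SNHG26-guide libraries and 6.18 and 6.71 in the controls, so the SNHG26-guide library of day 3 stood apart from the rest.

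The ATP synthase mRNAs encode the proton channel subunit a (MT-ATP6) and a small stator subunit (MT-ATP8). MT-ATP6 stood at 5995 and 5227 TPM with the SNHG26 guides and at 6889 and 7357 TPM with the control guides, without overlap (log2 change -0.35, SE 0.10, unadjusted limma p 0.0254). MT-ATP8 stood at 1655 and 2808 TPM against 2910 and 3374 TPM, from 47, 89, 75 and 104 reads. Its arms did not overlap, and its low value was that of day 2, not day 3. The MT-ATP6 to MT-ATP8 ratio was 3.62 (95% interval 2.69 to 4.99) in the SNHG26-guide library of day 2 and between 1.86 and 2.37 in the other libraries. These ratios depend on how reads over the shared 46 bases were assigned.

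The rRNAs, whose values are given above, had log2 changes of -0.38 (SE 0.16) for MT-RNR2 and -0.14 (SE 0.21) for MT-RNR1, with limma adjusted p-values of 0.935 and 0.973. MT-RNR2 passed in 1 alternative, with the day as a replicate block among genes averaging 50 TPM or more (limma adjusted p 0.0400), a filter chosen after seeing the data. Over all alternatives its adjusted p ran from 0.0400 to 0.994. Its ratio between the arms was 0.906 (95% interval 0.890 to 0.922) on day 2 and 0.649 (0.637 to 0.660) on day 3. For MT-RNR1 the ratios were 1.02 (0.976 to 1.07) and 0.799 (0.761 to 0.840). Without the SNHG26-guide library of day 3 the change of MT-RNR1 became 0.128, that of MT-ND2 0.0199 and that of MT-ND4L 0.0436, while the other 12 rRNAs and mRNAs stayed below 0. The mRNA median without that library was -0.23.

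**Figure D3:**
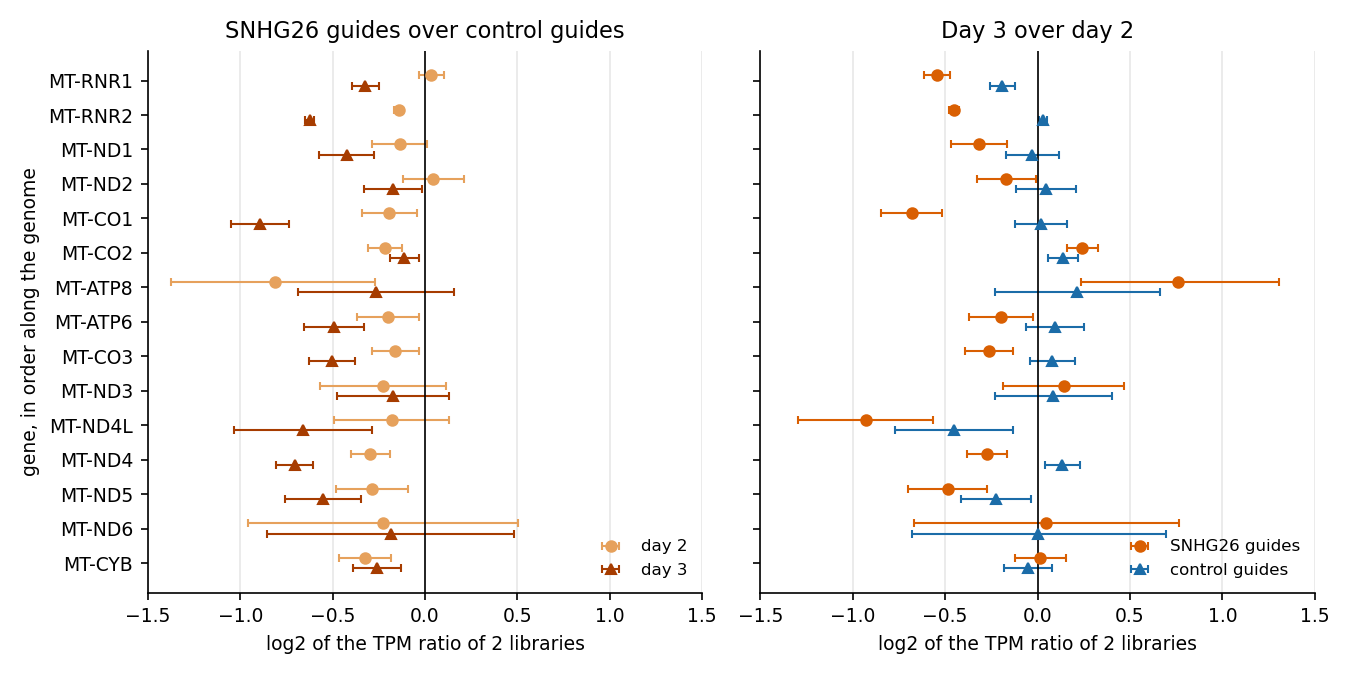
Log2 ratio of TPM between 2 libraries (x axis) for the 15 rRNAs and mRNAs in order along the genome (y axis), for the guides on each day (left) and for the days in each arm (right), with bars for the 95% counting interval. The ratios of the guides on day 3 lie furthest below 0 for MT-CO1 (0.539 as a ratio), MT-ND4 (0.613) and MT-ND4L (0.634), and MT-ND2 and MT-RNR1 lie above 0 on day 2.

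**Figure D4:**
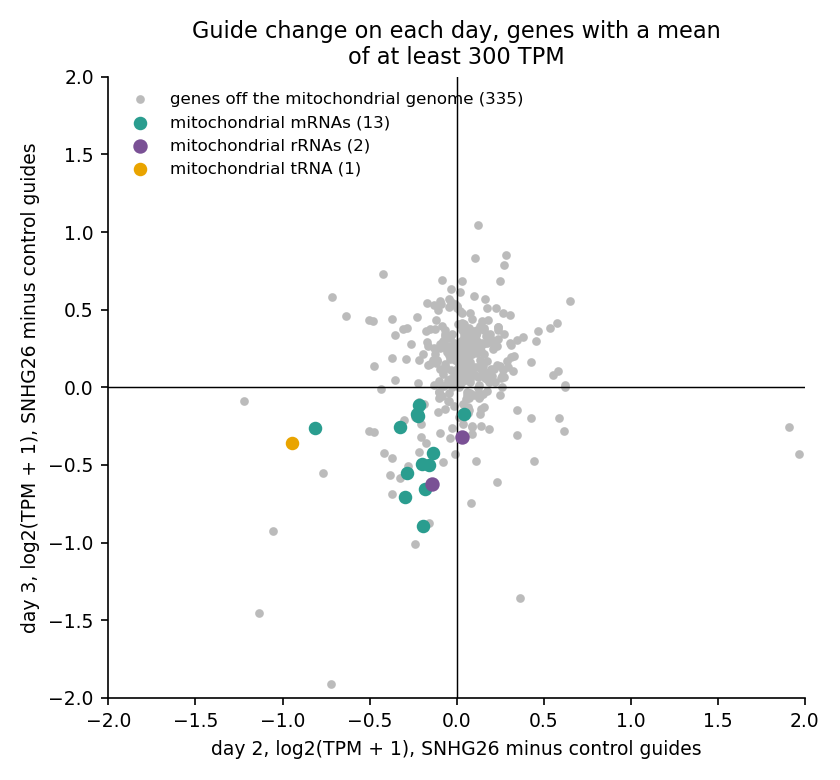
Guide change on day 2 (x axis) against day 3 (y axis), SNHG26 minus control guides on log2(TPM + 1), for the 351 genes averaging 300 TPM or more, with 335 genes off the mitochondrial genome in grey and mitochondrial genes in colour. The medians of the mitochondrial mRNAs were -0.22 (day 2) and -0.42 (day 3), and those of the grey points 0.0448 and 0.17.

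The scale bears on these sizes, since TPM shares a fixed sum and mitochondrial RNA takes much of it. Genes off the mitochondrial genome that averaged 300 TPM or more had median guide changes of 0.0448 on day 2 and 0.17 on day 3. Scaled to the summed TPM of the genes off the mitochondrial genome, the mRNA median was -0.42, all 13 stayed below 0 and none passed. Median ratio scaling gave -0.37.

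The day 3 difference between the arms was not even along the mRNAs. Of the 13, all were lower on day 3, against 44.1% of all genes tested, and for 10 the counting interval of the ratio lay below 1. On day 2, 12 were lower, against 48.9% of all genes tested, and 8 had such an interval. The day 3 changes ran from -0.11 for MT-CO2 to -0.89 for MT-CO1, beyond the -0.71 of MT-ND4. Across the 13 mRNAs the Spearman correlation of the change with gene length was -0.40 on day 3 and 0.0440 on day 2, and that with position was -0.0989 and -0.62. These describe genes of the same libraries that share depth and scale. Among 1618 nuclear genes that averaged 20 TPM or more and had a spliced length in GENCODE, the median guide change of day 3 ran from 0.0898 to 0.25 over 5 bins of spliced length, with 0.0950 in the longest bin. Whether transcript length plays a part in the mitochondrial values was not tested.

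Between the days, more of the mitochondrial mRNAs were lower in the SNHG26 arm than in the control arm, and none passed. Of 8274 genes tested, 3 (0.0363%) passed a limma adjusted p of 0.05 and 547 (6.61%) had an unadjusted p under 0.05. The one member that passed was a tRNA row, given below with its reads. From day 2 to day 3, 8 of the 13 mRNAs were lower in the SNHG26 arm (median log2 change -0.20), against 45.4% of all genes tested. In the control arm 4 were lower (median 0.0478), against 50.9% of all genes tested. In both arms 3 were lower, against 24.8% of all genes tested, and 4 were higher, against 24.3%. The 3 were MT-ND1, MT-ND5 and MT-ND4L. MT-ND4L had ratios of day 3 to day 2 of 0.526 (95% interval 0.407 to 0.676) and 0.732 (0.586 to 0.914), and its log2 change was -0.69 (SE 0.25, limma adjusted p 0.760), from -1.02 to -0.36 with 1 library left out. MT-ND4L passed only with the arm as a replicate block among genes averaging 50 TPM or more (limma adjusted p 0.00787, in a range of 0.00787 to 0.83 over all alternatives). The 4 were MT-CO2, MT-ATP8, MT-ND3 and MT-ND6. MT-CO2 had ratios of 1.18 (1.11 to 1.25) and 1.10 (1.04 to 1.17) and a log2 change of 0.19 (SE 0.0994, limma adjusted p 0.760), from 0.0817 to 0.30 with 1 library left out. MT-ND6 had ratios near 1, of 1.03 (0.630 to 1.70) and 1.003 (0.625 to 1.62), and its sign flips to -0.0112 when scaled to genes off the mitochondrial genome. MT-RNR1 was lower on day 3 in both arms, with ratios of 0.685 (0.652 to 0.719) and 0.877 (0.836 to 0.920), while MT-RNR2 had 0.731 (0.717 to 0.744) and 1.02 (1.004 to 1.04). The counting intervals of this ratio did not overlap between the arms for both rRNAs, MT-CO1 (0.624, 0.556 to 0.700, against 1.01, 0.920 to 1.12), MT-ND4 (0.826, 0.766 to 0.891, against 1.10, 1.03 to 1.17) and MT-CO3 (0.833, 0.761 to 0.913, against 1.06, 0.972 to 1.15). Each of these ratios compares 2 single libraries, and the intervals hold no spread between replicates. Limma's crossed contrast for a guide change that differed between the days gave no adjusted p under 0.965 for any rRNA or mRNA. With 1 library for each arm and day, this contrast takes the arm and day differences as its spread. It therefore cannot show that the guide changes were alike on both days. Over all genes, 8 (0.0967%) passed it and 291 (3.52%) had an unadjusted p under 0.05, and the 3 members in both counts were tRNA rows with at most 3 reads in a library.

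The tRNA rows rest on single reads. All 30 members averaged at least 1 TPM and were tested, but on 70 bases 1 read was worth 93.3 to 115 TPM, so 1 read in 1 library was enough to enter. The 15 rows held 14, 11, 19 and 17 reads in the SNHG26-guide libraries of day 2 and day 3 and the control libraries of day 2 and day 3. In 5 rows the reads came from 1 library, in 6 from 2 and in 1 from 3, and 3 rows had reads in every library. A count of 0 allows up to 3 reads, which on 70 bases is 280 to 344 TPM. The other 7 tRNA genes have no row among the deposited values of the mitochondrial genome, so they are not analysed here. Mature mitochondrial tRNAs end in CCA and not in a poly(A) tail, and what RNA these reads came from was not tested.

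MT-TY, the tRNA for tyrosine, was the best covered and is shown whole for that reason. It lies on the minus strand before MT-CO1 and shares its last base, in capitals, with the first base of MT-TC, the tRNA for cysteine.
MT-TY (MT:5826-5891, minus strand): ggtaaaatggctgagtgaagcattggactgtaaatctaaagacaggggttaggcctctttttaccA
It had 4 and 4 reads with the SNHG26 guides and 7 and 5 with the control guides, which is 20 of the 61 reads on tRNA rows. MT-TC had 1, 1, 2 and 1 reads in the same order, and MT-TD, the tRNA for aspartate on the plus strand before MT-CO2, had 4, 1, 2 and 1. Between the days MT-TD passed in 1 alternative, the arm as a replicate block among genes averaging 50 TPM or more (limma adjusted p 8.65e-05). That filter was chosen after seeing the data. Without the block and that filter its limma adjusted p was 0.406. The 4 rows on the minus strand held 29 reads and the 11 on the plus strand held 32. For MT-TY the arms did not overlap, and the limma adjusted p was 0.935.

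**Figure D5:**
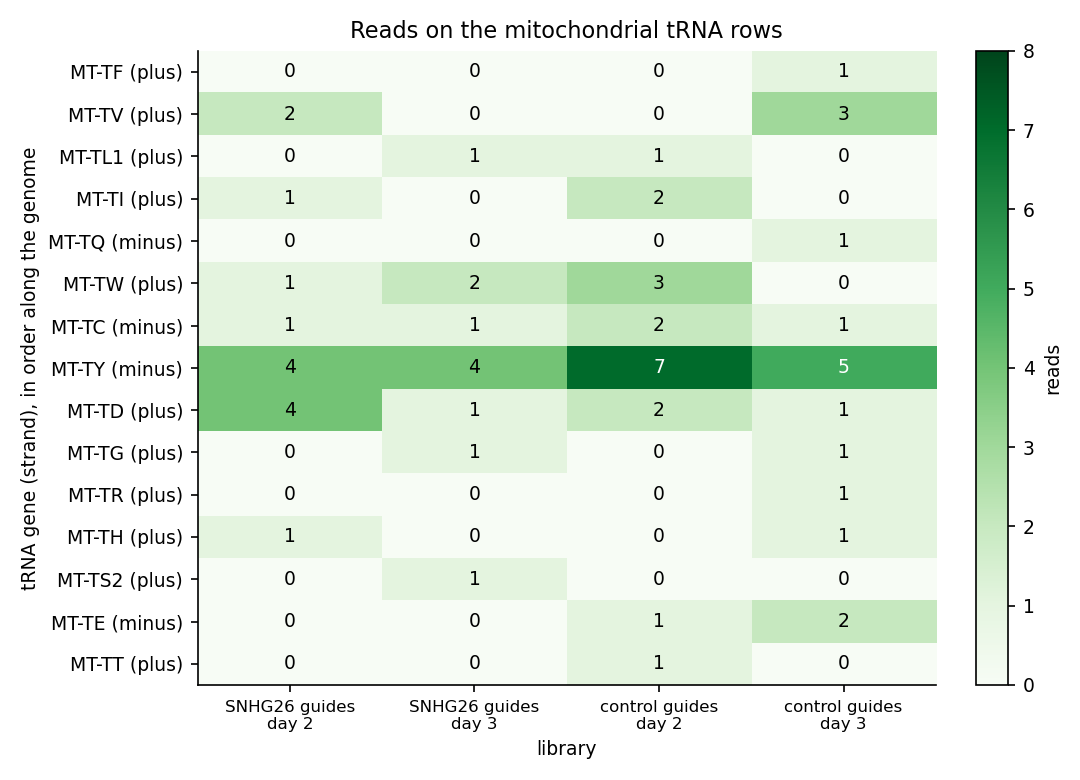
Reads (number and shade) on each of the 15 tRNA rows in order along the genome (y axis, strand in brackets) in the 4 libraries (x axis). MT-TY has 4 to 7 reads in every library, and no other row has more than 4.

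MT-TE, the tRNA for glutamate beside MT-ND6 on the minus strand, had 0 reads in both SNHG26-guide libraries and 1 and 2 in the controls. Its limma adjusted p of 0.0917 was the smallest of the members between the guides, and ran from 0.0690 to 0.964 over the alternatives. MT-TG, the tRNA for glycine between MT-CO3 and MT-ND3, had 1 read in each day 3 library and 0 on day 2. It passed the day comparison with a limma adjusted p of 0.0463, and with the arm as a replicate block this became 0.321. Leaving out any 1 library gave 0.0936 to 0.119. The depth of these rows cannot show a difference, since both groups lie at or under 3 reads a library.

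The table also lists 21 nuclear copies of mitochondrial genes, pieces of mitochondrial DNA that were inserted into chromosomes, to which mitochondrial reads could be assigned. Those with a value took 0.147% to 0.213% of the TPM of the mitochondrial rows. Of 20 copies aligned to their mitochondrial gene, 6 were at least 95% identical to it over the aligned part, and together these held 17 reads. The highest of them was MTATP6P1 (chromosome 1, 633696 to 634376), 98.5% identical to MT-ATP6 over its full length, with 1 and 1 reads with the SNHG26 guides and 5 and 3 with the control guides. Against 545 to 746 reads on MT-ATP6 these numbers are small, but reads of near-identical copies cannot be assigned with certainty.

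The nuclear genes that maintain and express the mitochondrial genome were followed in 6 lists with 100 genes, of which 86 could be tested. By limma's adjusted p none passed between the guide arms in either direction, and none between the days. An unadjusted limma p under 0.05 between the arms was found for 2 of them, POLG and TFE3, against 4.07% of all genes tested. POLG, of the DNA maintenance list, stood at 5.98 and 10.3 TPM with the SNHG26 guides and at 0 and 0.362 TPM with the control guides. Its log2 change was 2.93 (SE 0.49, limma adjusted p 0.395), and TFE3 is given below. Of the 86, on both days 15 stood higher in the SNHG26 arm (24.8% of all genes tested) and 21 lower (21.8% of all genes tested), and the median log2 change was -0.0130. By list, the medians were 0.15 for the 16 tested genes of mitochondrial DNA maintenance and transcription and -0.0354 for the 20 of RNA processing and decay. They were 0.0660 for the 18 of rRNA modification and ribosome assembly (-0.0322 on day 2 and -0.11 on day 3), -0.11 for the 15 of tRNA modification, -0.0490 for the 10 translation factors and -0.0833 for the 7 regulators of mitochondrial biogenesis. Both SNHG26-guide libraries lay below both control libraries in 12 of the 86 (13.2% of all genes tested) and above them in 10 (16.1% of all genes tested). Among the 18 of rRNA modification and ribosome assembly these counts were 6 and 3. The length by which the following levels were divided is not known for genes with introns, so they are compared between libraries only. SLIRP, which with LRPPRC protects mitochondrial mRNAs, stood at 843 and 887 TPM with the SNHG26 guides and at 838 and 825 TPM with the control guides. TUFM, the elongation factor that brings tRNAs to the mitochondrial ribosome, stood at 211 and 239 TPM against 284 and 246 TPM. SSBP1, which coats single-stranded mitochondrial DNA, stood at 176 and 175 TPM against 158 and 152 TPM, without overlap (log2 change 0.18, SE 0.17, limma adjusted p 0.941). HSD17B10, a subunit of the RNase P that cuts mitochondrial tRNAs at their 5′ ends, stood at 152 and 172 TPM against 165 and 156 TPM.

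The other genes named by the same rule had lower levels. RPUSD3, a pseudouridine synthase-like factor for the 16S rRNA, stood at 80.4 and 80.8 TPM against 74.9 and 98.1 TPM, and ERAL1, a chaperone of the 12S rRNA, at 54.3 and 60.1 TPM against 56.6 and 53.3 TPM. PTRH2 stood at 29.5 and 32.2 TPM against 42.1 and 26.5 TPM, QTRT1, a subunit of the enzyme that puts queuosine into tRNA, at 11.0 and 19.2 TPM against 13.5 and 14.1 TPM, and MTIF3, an initiation factor, at 20.5 and 20.8 TPM against 20.1 and 21.4 TPM. TOP1MT, the mitochondrial topoisomerase, ranged from 7.48 to 47.1 TPM within the SNHG26 arm. TFE3, a transcription factor of lysosomal and mitochondrial genes, stood at 5.48 and 3.12 TPM against 17.6 and 18.9 TPM, without overlap (log2 change -1.90, SE 0.37, limma adjusted p 0.538). YY1 stood at 13.9 and 10.7 TPM against 9.87 and 5.94 TPM, also without overlap, with a limma adjusted p of 0.935.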

How the data were processed

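Poly(A) RNA was reverse-transcribed with oligo-dT and strand switching and amplified for 14 cycles before nanopore sequencing, per the labels' protocols. Values are TPM per gene, deposited as a single table with a column for each library. The submitters' processing notes name minimap2 2.24-r1122 and GRCh38. The counting tool, annotation and filters are not given in the sources used here. Gene length equals gene start to gene end in every row. Reads were recovered from the members as TPM times length over a unit per library (0.0001 read tolerance), the largest unit that made all members whole.

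The scale was log2(TPM + 1), on which the change of a low gene is understated. The 8274 genes averaging 1 TPM or more were fitted with limma 3.58.1 in R 4.3.3 (trend), Benjamini-Hochberg over all of them, threshold 0.05, without a block. Libraries of the same day share a number in the labels. After centring on each arm, libraries of 1 day correlated at 0.0464 over these genes, so the numbers were not taken to pair them, and the block was an alternative. Nothing says that libraries came from separate cultures, so p-values measure only the spread between them. Without a block, the spread in the guide comparison includes the difference between the days. In the day comparison it includes the difference between the arms. Read ratios have exact Clopper-Pearson intervals. Sequences and coordinates came from GENCODE release 29, where all 30 members matched. Copies were aligned with Biopython 1.88. The read recovery and the limma fit were run on simulated data. The data simulated for limma held counting error alone, so its p-values were not tested on spread like that of these libraries. Members and lists were chosen with earlier results of these data known. All members are accounted for. Of nuclear copies, the 3 with the highest mean TPM are named, and of each nuclear list those past the threshold or, if none, the 2 with the highest mean TPM. POLG is named besides, for its unadjusted p. Alternatives were other pseudocounts, filters and scalings, limma without a trend, a replicate block, voom on whole reads (403 genes averaging 10 reads or more) and leaving out each library.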

Additional observations from a re-analysis of the deposited data

Results flagged for a closer look

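In 3 members the guide change differed between day 2 and day 3 by limma's crossed contrast of the 4 libraries, where 8 of 8274 genes (0.0967%) passed an adjusted p of 0.05 and 291 had an unadjusted p under 0.05. All are tRNA rows with an adjusted p of 0.0426. MT-TV, the tRNA for valine, had 2 and 0 reads with the SNHG26 guides on day 2 and day 3 and 0 and 3 with the control guides, a fitted log2 difference of -15.9 between the days. MT-TL1, a tRNA for leucine, had 0 and 1 against 1 and 0 reads (13.2), and MT-TH, the tRNA for histidine, had 1 and 0 against 0 and 1 (-13.4). These fitted values depend on the pseudocount and are no bounds. The contrast takes the arm and day differences as its spread. In such crossed counts these are small, with log2 values of -0.23 and 0.23 for MT-TV. With a pseudocount of 5, no filter or limma without a trend, 0 genes passed this contrast. At no more than 3 reads in any library, a difference in these RNAs is not detectable at this depth.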

How the results depend on the processing

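Between the guides, 0 genes passed in any alternative but one: among genes averaging 50 TPM or more, the replicate block gave 14, MT-RNR2 among them. The replicate block without this filter gave 0. The filter at 50 TPM was chosen after seeing the data. The day comparison, with 3 genes, gave 0 without a filter, without a trend, with a pseudocount of 0.1 or 5, with the replicate block, at 50 TPM, or with any library left out (0 to 0), 7 with voom on whole reads and 35 with the replicate block at 50 TPM. For a guide change that differed between days, 8 genes became 14 at a pseudocount of 0.1 and 13 from 5 TPM up. They became 0 at a pseudocount of 5, without a filter or trend, with voom, at 50 TPM, or with any library left out (0 to 0). A lone library is assumed there to vary like the others. The cause was not tested.

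The mRNA median between the guides ran from -0.42 to -0.33 over the other settings and from -0.44 to -0.23 over libraries left out. Between the days it ran from -0.30 to 0.12 over libraries left out. The mitochondrial share became 3.12% and 4.00% (SNHG26 and control guides) by reads on full spans, which is a lower bound. For the mRNAs alone it was 7.51% and 9.12% of the TPM. Ranked by reads, 3 mRNAs kept their place.

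Signs turned when a library was left out for 3 guide changes, MT-RNR1 (-0.42 to 0.13), MT-ND2 (-0.15 to 0.0199) and MT-ND4L (-0.88 to 0.0436). They turned for 10 day changes, MT-RNR2 (-0.52 to 0.10), MT-ND1 (-0.38 to 0.0399), MT-ND2 (-0.15 to 0.0259), MT-CO1 (-0.78 to 0.12), MT-ATP6 (-0.30 to 0.20), MT-CO3 (-0.34 to 0.16), MT-ND3 (-0.000376 to 0.23), MT-ND4 (-0.42 to 0.28), MT-ND6 (-0.0874 to 0.14) and MT-CYB (-0.18 to 0.14). Others kept their sign but moved by over 1.5 times. Between the guides these were MT-RNR2 (-0.61 to -0.16), MT-ND1 (-0.44 to -0.12), MT-CO1 (-0.88 to -0.20), MT-CO2 (-0.29 to -0.0434), MT-ATP8 (-0.92 to -0.16), MT-CO3 (-0.46 to -0.20), MT-ND3 (-0.27 to -0.13) and MT-ND5 (-0.66 to -0.18). Between the days these were MT-RNR1 (-0.53 to -0.21), MT-CO2 (0.0817 to 0.30), MT-ATP8 (0.0808 to 0.89), MT-ND4L (-1.02 to -0.36) and MT-ND5 (-0.63 to -0.0807). MT-ND6 between the days also turned, to -0.0112, when scaled to genes off the mitochondrial genome.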

Other observations

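Of the nuclear copies of mitochondrial genes, those with the most reads were not those closest to the mitochondrial sequence. MTND1P8 (chromosome 16, 3369957 to 3370906, minus strand) had 22 and 26 reads with the SNHG26 guides and 19 and 21 with the control guides, which is 169 and 179 TPM against 161 and 148 TPM. It was 76.1% identical to MT-ND1. MTCYBP12 (chromosome X, 5169512 to 5170645, plus strand) had 17 and 22 against 18 and 22 reads and was 76.6% identical to MT-CYB. Both had reads in all 4 libraries. The copies at least 95% identical to their gene each had from 1 to 10 reads over the 4 libraries.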
